A study of Mus musculus with 25 samples.

Results

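The genes described here are 3 protein-coding gene copies and 4 genes of nearly the same sequence, 7 of the 16220 genes measured in dorsal root ganglia of recombinant inbred mice. The copies are Eno1b (ENSMUSG00000059040, chromosome 18), Tpm3-rs7 (ENSMUSG00000058126, chromosome 14) and Tuba1c (ENSMUSG00000043091, chromosome 15). They were chosen by their scaled counts, which lay at 2 levels over the strains, so their own 2 levels are given as a description. The related genes are Eno1 (ENSMUSG00000063524, chromosome 4) for Eno1b, Tpm3 (ENSMUSG00000027940, chromosome 3) for Tpm3-rs7, and Tuba1a (ENSMUSG00000072235) and Tuba1b (ENSMUSG00000023004), both on chromosome 15, for Tuba1c. They belong to the family of a copy, and were taken with earlier results of these data known. The question was whether a related gene was lower in the strains in which its copy was higher.

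The mice were 8 weeks old and came from 25 BXD strains, inbred lines derived from the cross C57BL6/J x DBA2/J. Each line is fixed almost everywhere for the allele of one of those parents, and genes close together on a chromosome are mostly inherited together. Names of 16 strains end in TyJ and names of 9 end in RwwJ, an ending that marks the laboratories a line came from, and all 25 strains entered every comparison unless said otherwise. Each strain had 1 library, and the labels state neither the sex of the mice nor how many were pooled, so p-values measure only the spread between these libraries.

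Enolase catalyses a late step of glycolysis, and Eno1 encodes the widely expressed enolase of most cells. Tropomyosins are coiled-coil proteins that lie along actin filaments and set which partners can bind them, and Tpm3 gives rise to non-muscle forms found in neurons as well as a slow-muscle form. Alpha-tubulin pairs with beta-tubulin to build microtubules, which axons hold in great number, and Tuba1a is the main alpha-tubulin of developing neurons. Messenger RNA can be copied back into the genome at a new place. Such a retrogene has lost its parent's introns and promoter, and some keep an open reading frame.

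The annotation tags Eno1b and Tpm3-rs7 as retrogenes. Of the coding transcripts, the longest of Eno1b (1791 bases) has 2 exons where that of Eno1 has 12, and that of Tpm3-rs7 has 1 exon where that of Tpm3 (2233 bases) has 9. Tuba1c does not carry that tag: it has 4 exons, as Tuba1a and Tuba1b do, and no other tested gene lies between the 3 on chromosome 15. "Copy" is therefore used for Tuba1c only as a name. Some annotated genes overlap members: AC150274.2 lies on the strand of Eno1b, Gm49450 on that of Tuba1a and Tuba1b, and Gm41396 opposite Tuba1b. The library kit does not mark strand, so reads of Tuba1b and of its antisense partner cannot be told apart.

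The copies and their related genes differ by few bases. The coding sequences of Eno1b and Eno1 are both 1302 bases long and differ at 8 positions, an identity of 99.39%. Those of Tpm3-rs7 and Tpm3 are 744 bases long and differ at 3 positions, an identity of 99.6%. All 3 lie in the stretch printed here from coding position 38 to 127, counted from 1 at the coding start, with the differing bases in capitals. They are G72A, G98A and G127A, with the base of Tpm3 first and that of Tpm3-rs7 last.
Tpm3-rs7: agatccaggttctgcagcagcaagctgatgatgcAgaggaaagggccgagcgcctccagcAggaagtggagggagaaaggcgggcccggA
Tpm3: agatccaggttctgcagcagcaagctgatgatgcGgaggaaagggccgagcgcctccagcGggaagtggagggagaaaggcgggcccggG

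The tubulins are a little further apart. The coding sequence of Tuba1c, 1347 bases, matched that of Tuba1b, 1353 bases, at 98.37% with 22 mismatches and 6 gap positions. It matched Tuba1a at 97.55% with 33 mismatches and 6 gap positions.

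The printed sequences and all comparisons of sequence are from GENCODE M21 transcripts on GRCm38, the C57BL/6J reference. For each pair the transcripts whose coding sequences match most closely were compared, for Eno1b one of 1747 bases and for Tpm3 one of 2230 bases, which are not the longest used for the exon counts. How much of a read could fit both genes of a pair follows from the stretches they share. Of all windows of 50 bases in that Eno1b transcript, 82.16% occur unchanged in Eno1, and of windows of 100 bases 68.51% do. For Tpm3-rs7 in Tpm3 the shares are 69.45% and 49.8%, for Tuba1c in Tuba1b 51.99% and 42.43%, and for Tuba1c in Tuba1a 42.52% and 31.55%. Neither the read length nor the way a read that fits more than 1 gene was counted is given in the sources used here. The split of reads within each pair is therefore uncertain, and values of a copy and of its related gene are not separate measurements in the shared stretches.

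**Figure D1:**
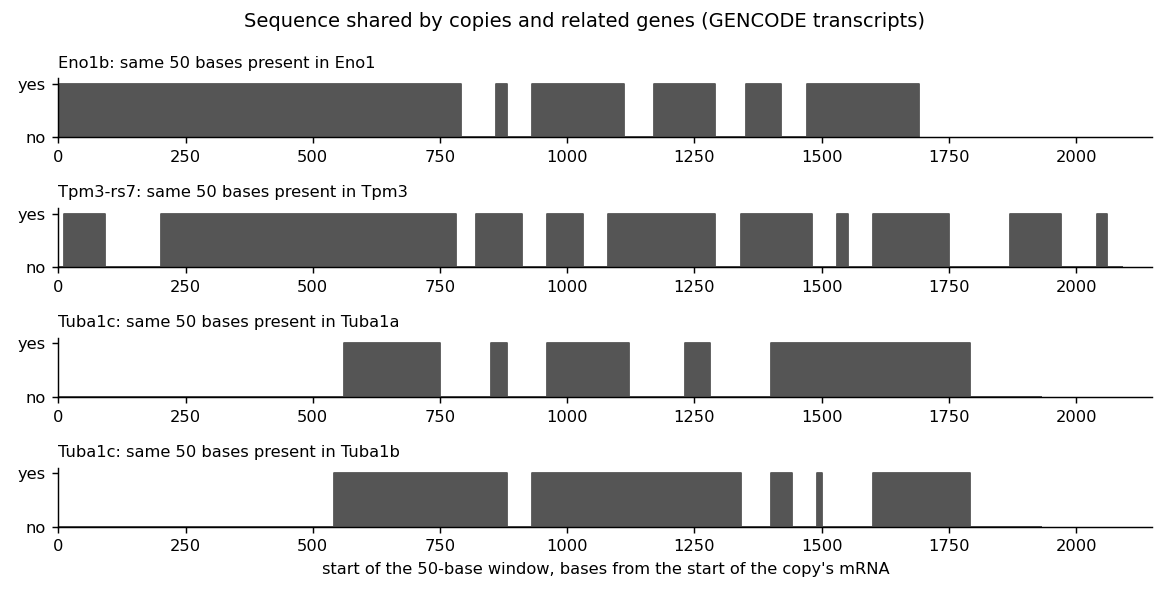
Stretches of each copy's transcript that occur unchanged in the related gene. The x axis is the start of a 50-base window in bases from the start of the copy's transcript, and a filled bar marks windows also present in the related gene: 82.16% for Eno1b in Eno1, 69.45% for Tpm3-rs7 in Tpm3, 42.52% for Tuba1c in Tuba1a and 51.99% for Tuba1c in Tuba1b.

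Values are scaled counts, the authors' read counts after scaling to the same upper quartile in each library. The libraries held an estimated 20000000 to 40100000 reads, and 1 read stood for 0.6225 to 1.253 scaled counts in the 23 libraries where this step was clear. All 12 sensory neuron markers were measured, with a summed level of 415530 to 652650 scaled counts a library. The summed levels of the 8 skeletal muscle markers ran from 380 to 44926 and those of the 8 spinal cord markers from 259 to 14817. In whole ganglia, fewer cells of a type and less RNA per cell cannot be told apart.

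All 7 genes passed the filter of a mean of at least 10 scaled counts. Per kilobase of annotated exon, Tuba1a had the highest mean level, 24297 scaled counts per kb with a range over strains of 19496 to 33466. Tuba1b followed at 5958.5 per kb, range 4631.5 to 7256.5, and Eno1 at 1867.1 per kb, range 1418.9 to 2422.4. With these lengths the 3 ranges did not overlap each other. The length joins the exons of all transcripts of a gene, 5379 bases for Eno1 and 6085 for Tpm3. Their longest coding transcripts have 2027 and 2233 bases. The order of genes and the gaps between ranges therefore depend on the length used. Mean levels per kb were 487.03 for Tuba1c, 286.33 for Eno1b, 190.16 for Tpm3 and 104.82 for Tpm3-rs7, and the ranges of these 4 overlapped.

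Eno1b lay at 0 to 5 scaled counts, with a median of 1, in 12 strains and at 887 to 1292, with a median of 996, in the other 13. Nothing lay between BXD40 at 5 and BXD55 at 887. Its lower level amounted to a handful of reads in a library, and 5 of the 12 strains were listed at 0.

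Tpm3-rs7 lay at 0 to 7, with a median of 2, in 14 strains and at 356 to 612, with a median of 533, in 11. The values on either side of the gap were 7 in BXD77 and 356 in BXD60. Here too 5 strains were listed at 0.

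Tuba1c was never near 0. It lay at 124 to 338, with a median of 163.5, in 18 strains and at 3073 to 4390, with a median of 3429, in 7. BXD5 was the highest strain of the lower level at 338, and BXD68 the lowest of the upper level at 3073.

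The levels of the 3 copies fell in different strains. Eno1b and Tpm3-rs7 were both at the upper level in 6 strains, only Eno1b was in 7, only Tpm3-rs7 in 5, and neither in 7. Eno1b and Tuba1c were both at the upper level in 4 strains, and Tpm3-rs7 and Tuba1c in 4. Eno1, Tuba1a and Tuba1b showed no gap of that kind. Splitting each one's own values in the same way left a log2 gap of 0.06 for Eno1, 0.05 for Tuba1a and 0.08 for Tuba1b. The gaps of Eno1b, Tpm3-rs7 and Tuba1c were 7.21, 5.48 and 3.18. For Tpm3 the gap was 0.29, between 924 and 1131 scaled counts. That was smaller than the gaps of the copies and larger than those of the other related genes.

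**Figure D2:**
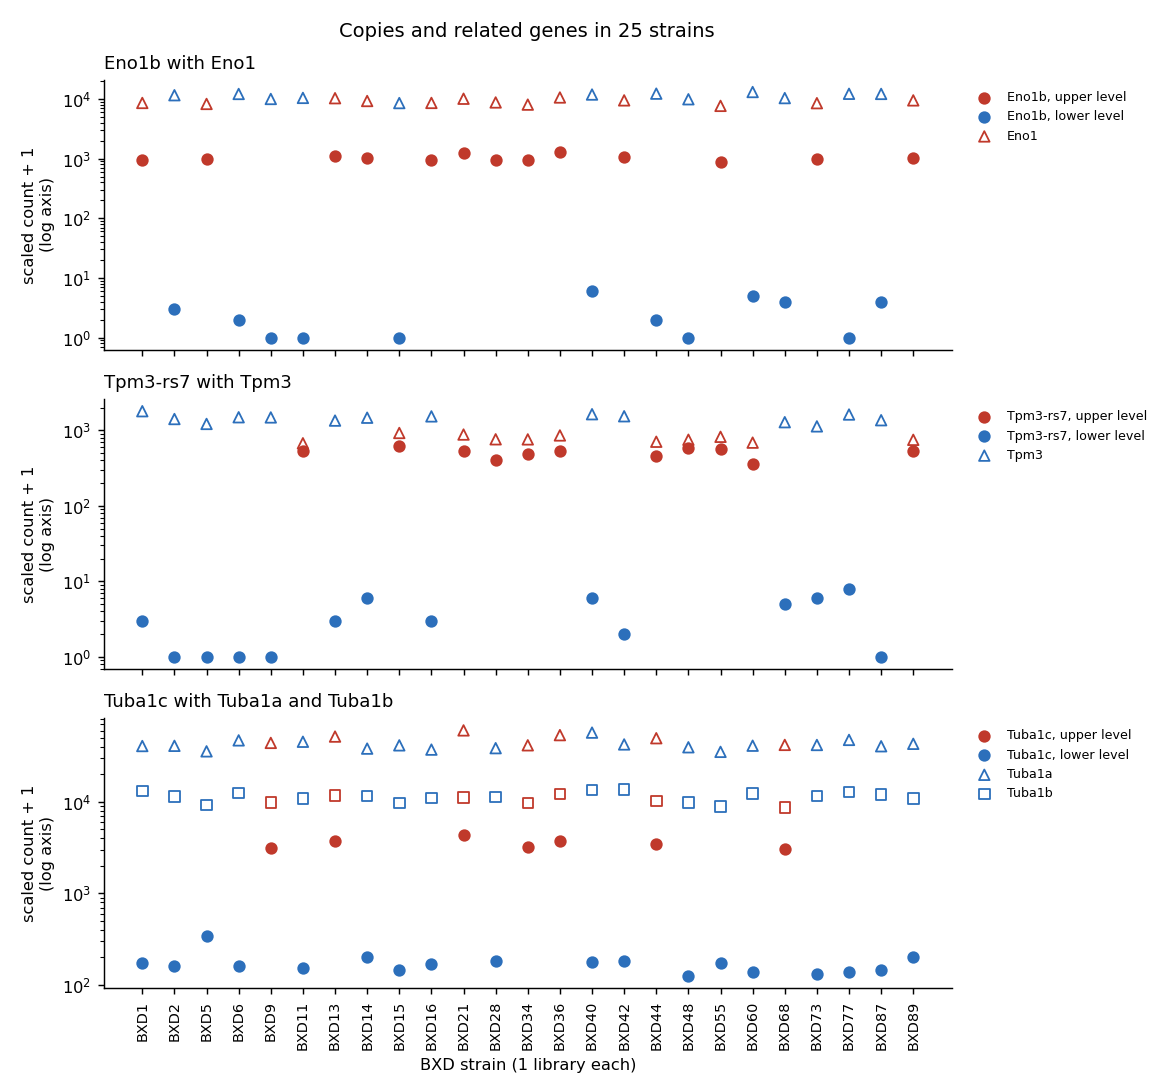
Scaled counts of the 7 genes in each of the 25 strains, 1 library each, as scaled count + 1 on a log axis. Filled circles are the copies and open symbols the related genes, in red where the copy is at its upper level and in blue where it is at its lower level. Eno1b moves between at most 5 and at least 887 and Tpm3-rs7 between at most 7 and at least 356, while Eno1 stays between 7632 and 13030.

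Tpm3 was lower in every strain in which Tpm3-rs7 was at its upper level. In the 14 strains at the lower level of the copy, Tpm3 ran from 1131 in BXD73 to 1797 in BXD1, with a median of 1479.5. In the 11 strains at the upper level it ran from 675 in BXD11 to 924 in BXD15, with a median of 760. The ranges did not overlap, and dividing the strains by the values of Tpm3 itself gives the same 14 and 11. Means were 1454 ± 177 (SD, n = 14) and 780 ± 81.2 (SD, n = 11).

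The log2 difference of Tpm3, upper minus lower level of Tpm3-rs7, was -0.89 ± 0.067 (SE), with a 95% interval of -1.03 to -0.76 and an adjusted p of 2.17e-09 (limma, two-sided, Benjamini-Hochberg over 16151 genes). In that comparison 0.0619% of the genes passed, 0.0248% higher and 0.0371% lower, 2.32% had an unadjusted p under 0.05, and 0.0186% were lower with ranges that did not overlap. Of the 16151 genes, 33 were at least as low, Tpm3 among them. By the levels of the other copies, 435 genes were at least as low as Eno1 and 3419 at least as low as Tuba1b. At least as high as Tuba1a were 652 genes. The fall had nearly the same size in TyJ strains, -0.88, and in RwwJ strains, -0.85, and the test of the difference between them gave 0.03 ± 0.13 (SE) with an adjusted p of 0.981.

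Measured in scaled counts, Tpm3 fell by more than Tpm3-rs7 was higher. The mean of the copy was higher by 506.1 and that of Tpm3 lower, with a difference of -674, or -1.33 for each scaled count of the copy. A loss of exactly the copy's 506.1 would be a log2 difference of -0.62, beside the measured -0.89. Whether reads of one gene were counted for the other was not tested. The sum of both genes was 1456 ± 177 (SD, n = 14) at the lower level and 1288 ± 142 (SD, n = 11) at the upper level.

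Eno1 had the same sign with a smaller difference. In the 12 strains at the lower level of Eno1b it ran from 8506 in BXD15 to 13030 in BXD60, with a median of 11670. In the 13 strains at the upper level it ran from 7632 in BXD55 to 10551 in BXD36, with a median of 8713. The ranges overlapped: 4 of the 13 strains lay below every strain of the lower level, and all 13 lay below its mean. Means were 11164 ± 1331 (SD, n = 12) and 9009 ± 903 (SD, n = 13).

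The log2 difference of Eno1 was -0.31 ± 0.065 (SE), with a 95% interval of -0.44 to -0.17, an unadjusted p of 6.82e-05 and an adjusted p of 0.0501 (limma), just above the threshold of 0.05. In that comparison 0.124% of 16151 genes passed, 0.0557% higher and 0.0681% lower, and 3.47% had an unadjusted p under 0.05. The side of the threshold depended on single libraries: the adjusted p was 0.00481 without BXD15, 0.0253 without BXD36, 0.0333 without BXD13, 0.0372 without BXD21, 0.0385 without BXD48 and 0.0438 without BXD9, and between 0.0515 and 0.12 without each of the other 19. The difference itself kept its sign and ran from -0.34 to -0.29. It was -0.22 in TyJ strains and -0.45 in RwwJ strains, and the test of the difference between these gave -0.22 ± 0.14 (SE) with an unadjusted p of 0.121 and an adjusted p of 0.999.

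The mean of Eno1b was higher by 1030.5 scaled counts and the mean difference of Eno1 was -2156, or -2.09 for each scaled count of the copy. A loss of exactly the copy's 1030.5 would be a log2 difference of -0.14. The 95% interval was -0.44 to -0.17 over all strains and -0.40 to -0.05 in TyJ strains alone. Whether reads of one gene were counted for the other was not tested. The sum of Eno1 and Eno1b was 11166 ± 1332 (SD, n = 12) at the lower level and 10041 ± 1012 (SD, n = 13) at the upper level.

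The alpha-tubulins gave no fall that passed the test. In the 18 strains at the lower level of Tuba1c, Tuba1a ran from 35152 in BXD55 to 57046 in BXD40, with a median of 40980. In the 7 strains at the upper level it was 41464 in BXD34, 41874 in BXD68, 44038 in BXD9, 49552 in BXD44, 51643 in BXD13, 53561 in BXD36 and 60339 in BXD21. The ranges overlapped, and 6 of the 7 lay above the mean of the lower level. Means were 41819 ± 5103 (SD, n = 18) and 48924 ± 6938 (SD, n = 7).

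The log2 difference of Tuba1a was 0.22 ± 0.081 (SE), with a 95% interval of 0.06 to 0.39, an unadjusted p of 0.0103 and an adjusted p of 0.960 (limma). In that comparison 0.0124% of 16151 genes passed, and 3.96% had an unadjusted p under 0.05. The mean of Tuba1c was higher by 3367 scaled counts. A loss of as many from Tuba1a would be a log2 difference of -0.12, beside the measured 0.22, and was not tested.

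Tuba1b ran from 8879 in BXD55 to 13606 in BXD42, with a median of 11457, at the lower level of Tuba1c. In the 7 strains of the upper level it was 8684 in BXD68, 9727 in BXD34, 9839 in BXD9, 10224 in BXD44, 11081 in BXD21, 11747 in BXD13 and 12168 in BXD36. The ranges overlapped, and 5 of the 7 lay below the mean of the lower level. Its log2 difference was -0.12 ± 0.079 (SE), with a 95% interval of -0.28 to 0.04 and an adjusted p of 0.960 (limma), so a small difference in either direction was not detectable. A loss from Tuba1b of the whole 3367 scaled counts would be a log2 difference of -0.50, beside the measured -0.12, and was not tested. The sum of Tuba1c and Tuba1b was 11606 ± 1403 (SD, n = 18) and 14034 ± 1609 (SD, n = 7), and that of Tuba1c and Tuba1a 41990 ± 5089 and 52462 ± 7398.

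**Figure D3:**
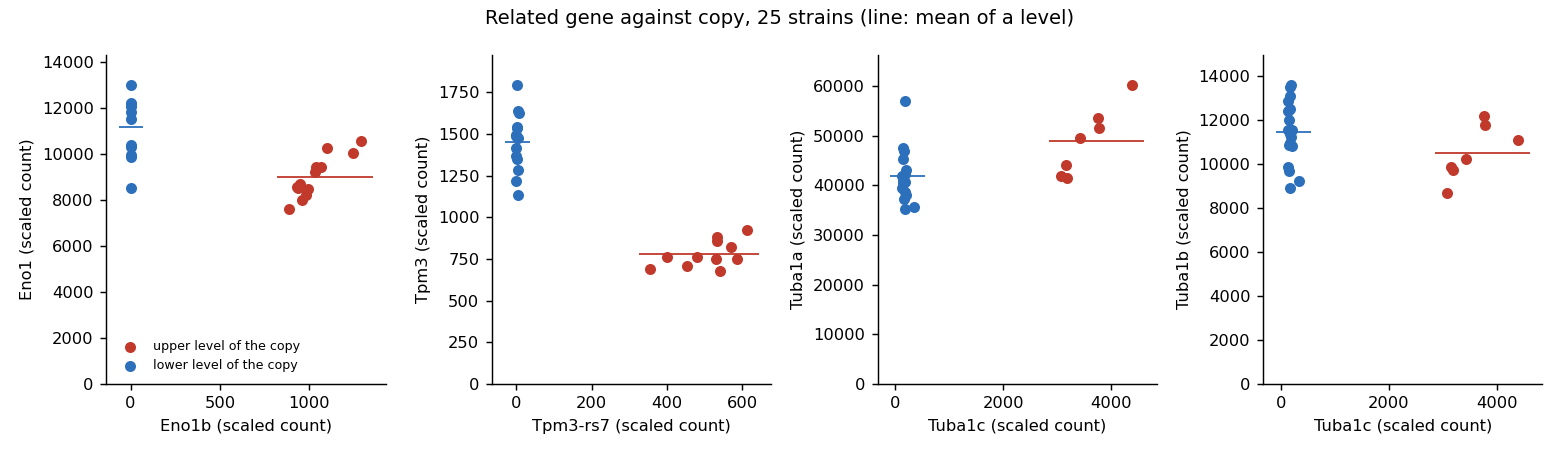
Scaled counts of each related gene (y axis) against its copy (x axis), 1 point a strain, red at the upper and blue at the lower level of the copy, with a line at the mean of each level. Tpm3 is at 675 to 924 in all 11 strains at the upper level of Tpm3-rs7 and at 1131 to 1797 in the other 14, while the levels overlap for Eno1, Tuba1a and Tuba1b.

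Each of the 7 genes was also compared by the levels of the copies of the other families. In these 14 comparisons the lowest adjusted p was 0.960 (limma).

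Within the upper level, Eno1b was higher in strains in which Eno1 was higher, and Tuba1c in strains in which Tuba1a was higher. Across the 13 strains with Eno1b at its upper level, the log2 values of Eno1 and Eno1b correlated with r = 0.897 (permutation p = 2e-05, adjusted over 8 relations 0.00016) and rho = 0.841 (permutation p = 0.00054, adjusted 0.00432). Without the 2 strains farthest from the median of Eno1b, r was 0.890. Within the 10 TyJ strains of that level r was 0.888 (permutation p = 0.00043, adjusted over 6 relations 0.00258). There rho was 0.794 (permutation p = 0.00896, adjusted 0.0538), which did not pass. The 3 RwwJ strains were too few for a value.

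Tuba1a followed Tuba1c in the same way across the 7 strains of its upper level, with r = 0.972 (exact permutation p = 0.00159, adjusted 0.00635) and rho = 0.857 (exact permutation p = 0.0238, adjusted 0.0910). Leaving out each of the 7 strains in turn gave r from 0.955 to 0.984. With 5 TyJ and 2 RwwJ strains, neither ending had enough strains for a value of its own, and nor were enough left without the 2 farthest strains.

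Tuba1b had r = 0.775 with Tuba1c at the upper level (exact permutation p = 0.0377, adjusted 0.0939), and Tpm3 had r = 0.555 with Tpm3-rs7 in 11 strains (permutation p = 0.0758, adjusted 0.121). Neither passed after adjustment. At the lower level Eno1b and Tpm3-rs7 held few reads, and Tuba1c 124 to 338 scaled counts. There r was 0.581 for Eno1 (permutation p = 0.0470, adjusted 0.0939), 0.126 for Tpm3, -0.306 for Tuba1a and -0.258 for Tuba1b, and none passed. Both genes of a pair are measured in the same library and share its scaling factor, and a read from a stretch they share could be counted for either. The part of these in the correlations was not tested.

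For Tuba1c with Tuba1a, Eno1b with Eno1 and Tuba1c with Tuba1b, the ratio of copy to related gene varied less at the upper level than either gene did. These ratios use the same values as the correlations above and describe the same relation. As a percentage of the scaled count of Tuba1a, not corrected for length, Tuba1c was between 6.92% and 7.674% in all 7 strains, with a median of 7.276%. The coefficient of variation of this ratio was 3.376%, against 13.3% for Tuba1c and 14.18% for Tuba1a alone. Eno1b was between 10.72% and 12.4% of Eno1 in 13 strains, with a median of 11.28% and a coefficient of variation of 4.968%, against 11.72% for Eno1b and 10.02% for Eno1. Tuba1c was 30.9% to 39.62% of Tuba1b, with BXD21 the highest and a coefficient of variation of 8.693%, against 13.3% for Tuba1c and 11.72% for Tuba1b.

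The ratio of Tpm3-rs7 to Tpm3 varied more than Tpm3 alone. It ran from 51.74% in BXD60 to 80% in BXD11, with a median of 63.93% and a coefficient of variation of 13.74%, against 15.48% and 10.41% for the genes alone. At the lower level Tuba1c was 0.293% to 0.949% of Tuba1a, with BXD5 the highest.

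**Figure D4:**
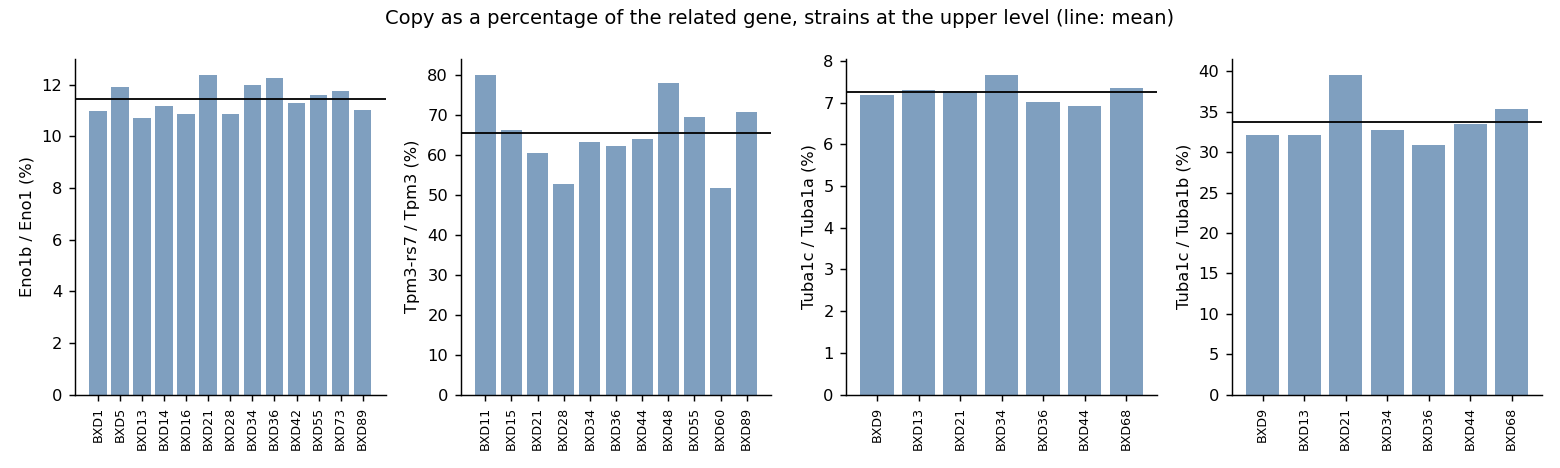
Scaled count of a copy as a percentage of its related gene, not corrected for length, 1 bar for each strain at the upper level of the copy and a line at the mean. Tuba1c stays between 6.92% and 7.674% of Tuba1a and Eno1b between 10.72% and 12.4% of Eno1, whereas Tpm3-rs7 spans 51.74% to 80% of Tpm3.

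Most genes that differed with the level of a retrogene lay on the chromosome of its related gene, and none that passed lay on the chromosome of the retrogene itself. By Eno1b level, 15 of the 1007 other genes tested on chromosome 4, which holds Eno1, passed (1.49%), against 0 of 405 on chromosome 18, which holds Eno1b, 4 of 14229 on other chromosomes (0.0281%) and 1 of 510 with no chromosome in the annotation. At an unadjusted p under 0.05 the counts were 83 on chromosome 4 (8.24%) and 13 on chromosome 18 (3.21%). Among the 100 tested genes nearest to Eno1, 7 passed, and among the 100 nearest to Eno1b, 0 passed in limma and 2 had an unadjusted p under 0.05. Eno1 itself is among the 1007 and did not pass.

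By Tpm3-rs7 level, 8 of 764 genes on chromosome 3, Tpm3 among them, passed (1.05%), against 0 of 539 on chromosome 14, where Tpm3-rs7 lies, and 1 of 14338 on other chromosomes. At an unadjusted p under 0.05 the counts were 68 on chromosome 3 (8.9%) and 4 on chromosome 14 (0.742%). Of the 100 tested genes nearest to Tpm3, 3 passed, and of the 83 nearest to Tpm3-rs7, 0 passed in limma and 2 had an unadjusted p under 0.05.

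By Tuba1c level, 0 of the 605 other genes tested on chromosome 15 passed in limma and 35 had an unadjusted p under 0.05 (5.79%). Outside it 1 gene with a known chromosome passed, Gm14150 on chromosome 2, and 1 with none. Among the 100 tested genes nearest to Tuba1c, members left out, 0 passed in limma. Of these 100, 11 had an unadjusted p under 0.05, against 3.96% of all genes tested.

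**Figure D5:**
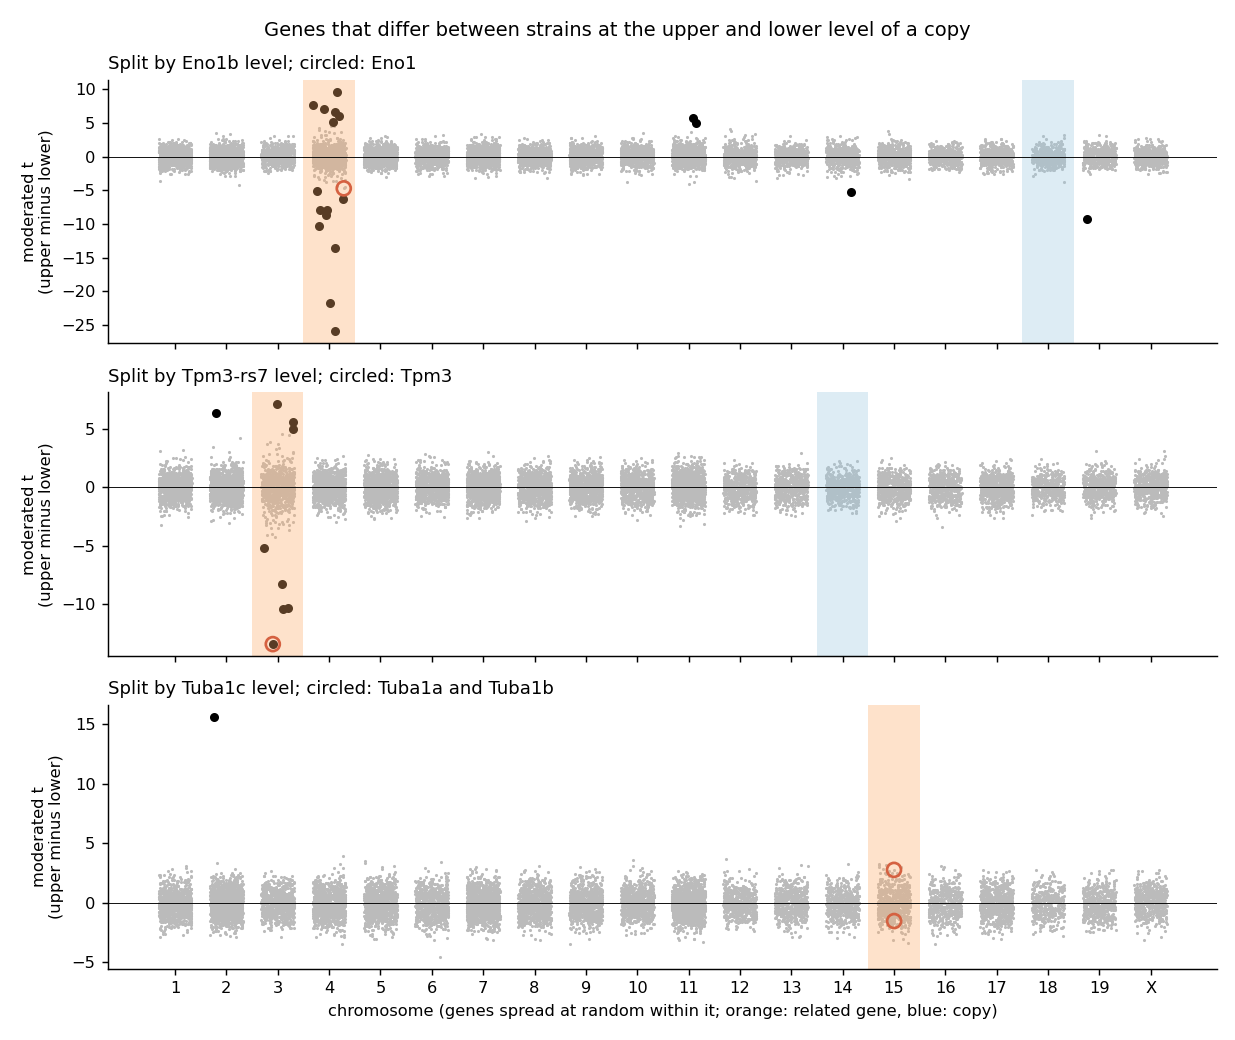
Moderated t of every gene with an annotated chromosome (y axis, upper minus lower level of the copy) by chromosome (x axis, genes spread at random within one). Black points passed after adjustment, circles mark the related genes, and shading marks the chromosome of the related gene (orange) and of the copy (blue). Black points gather on chromosome 4 for Eno1b, with 15, and on chromosome 3 for Tpm3-rs7, with 8, and there are 0 on chromosomes 18 and 14.

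The genes that followed Eno1b most closely were nearly all from chromosome 4. Zfp982, a zinc finger gene, was at 173 to 314 scaled counts at the lower level of Eno1b and at 10 to 30 at the upper level, a log2 difference of -3.85 ± 0.15 (SE) with an adjusted p of 2.27e-16 (limma). Zfp984 went from 61 to 125 down to 1 to 8, Zfp991 from 39 to 61 down to 2 to 13, and Zfp933 from 290 to 359 down to 187 to 252, and all 4 had ranges that did not overlap. In the other direction, Mad2l2, a subunit of a DNA polymerase that copies past damage, was at 194 to 271 and at 284 to 401. Of all genes tested, 0.0186% were higher and 0.0371% lower without overlap in that comparison. The fifth lowest was 4930481A15Rik on chromosome 19, at 26 to 88 and at 0 to 13. Tmem51os1, Gm13212 and Zfp979, all on chromosome 4, were also among the 5 highest.

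For Tpm3-rs7 the closest genes were again on the chromosome of the related gene. Them5, a thioesterase gene, was at 53 to 253 at the lower level and at 14 to 51 at the upper level, without overlap. Dap3, which encodes a protein of the mitochondrial ribosome, had a log2 difference of -0.67 ± 0.081 (SE) with an adjusted p of 2.25e-05 (limma), and Hdgf, a growth factor gene, one of -0.26 ± 0.050 (SE) with an adjusted p of 0.0288. The pseudogene 5830417I10Rik was at 78 to 632 and at 37 to 127. Higher were the pseudogenes Gm5847 on chromosome 3 and Gm13337 on chromosome 2, and Tmem144 and Ttf2 on chromosome 3. Snapin and Rbm46, also among the 5 lowest and 5 highest, did not pass, with adjusted p of 0.247 and 0.129.

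Gm14150, a processed pseudogene on chromosome 2, followed the level of Tuba1c. It was at 30 to 136 in the 18 strains of the lower level and at 388 to 767 in the 7 of the upper level, a log2 difference of 3.30 ± 0.21 (SE) with an adjusted p of 6.75e-11 (limma), and it was the only gene tested whose range was higher without overlap (0.00619%). Its transcript shares tubulin sequence: 62.45% of its 50-base windows occur in Tuba1b, 51.72% in Tuba1c and 40% in Tuba1a. No 50-base window of the other 12 genes compared occurs in any of the 7 genes.

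At the upper level Gm14150 was 649 in BXD9, 468 in BXD13, 503 in BXD21, 404 in BXD34, 442 in BXD36, 767 in BXD44 and 388 in BXD68. That was 11.5% to 22.4% of Tuba1c, not corrected for length, with a coefficient of variation of 30.8%, a looser ratio than that of Tuba1c to Tuba1a. Its neighbours Nanp and Nsfl1c had log2 differences of -0.16 and 0.08, both with an adjusted p of at least 0.960, and 0 of the 100 tested genes nearest to it passed in limma, 4 having an unadjusted p under 0.05. The other genes among the 5 highest, Cfap206, Scin, Plagl1 and Gm8773, and the 5 lowest, Arhgap25, Chd7, Parp3, Thpo and Hdac7, did not pass, with adjusted p from 0.460 to 0.960.

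The genes next to a copy did not pass the test by its level. Sema6a and Dtwd2 beside Eno1b had log2 differences of -0.01 and 0.004, and Slitrk5 and Mir17hg beside Tpm3-rs7 of -0.13 and 0.02, all with adjusted p near 1. Beside the related genes, Slc2a5, a fructose transporter gene next to Eno1, had 0.71 ± 0.16 (SE) with an adjusted p of 0.0885, and Nup210l next to Tpm3 had 0.69 ± 0.16 (SE) with an adjusted p of 0.176, while Rere and 4933434E20Rik on the other sides had -0.06 and 0.02. Lmbr1l and Prph, which flank the 3 tubulin genes, had 0.06 ± 0.084 (SE) and 0.18 ± 0.078 (SE) by Tuba1c level. Their adjusted p were 0.961 and 0.960 (limma). Prph encodes the neuronal filament protein peripherin and is also among the sensory neuron markers.

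Other members of the families did not pass. By Eno1b level, Eno2, the neuronal enolase, had a log2 difference of -0.06 ± 0.074 (SE), Eno3, the muscle enolase, 0.07 ± 0.39 (SE) and Eno4 -0.05 ± 0.19 (SE). By Tpm3-rs7 level, Tpm1 had 0.05 ± 0.092 (SE), Tpm2 0.16 ± 0.28 (SE) and Tpm4 0.11 ± 0.091 (SE). By Tuba1c level, Tuba4a had -0.04 ± 0.10 (SE) and Tuba8 0.09 ± 0.16 (SE), and Tuba3a, Tuba3b and Tubal3 were not tested. All adjusted p were at least 0.960.

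Genes that work with the 7 members did not pass either. Of 18 glycolysis genes by Eno1b level, 0 passed in limma and 0 had an unadjusted p under 0.05, with a median log2 difference of -0.002 against 0.006 over all genes tested. Of 19 partners of tropomyosin and actin by Tpm3-rs7 level, 0 passed and 1 had an unadjusted p under 0.05, with a median of 0.02 against 0.0008. Of 10 beta- and gamma-tubulin genes by Tuba1c level, 0 passed and 3 had an unadjusted p under 0.05, with 9 of 10 values above 0 and a median of 0.14 against -0.01, where 3.96% of all genes tested had an unadjusted p under 0.05. The 12 sensory neuron markers, with 10 of 12 values above 0, had a median of 0.08 in the same comparison. The highest of these markers was Prph at 0.18, which also flanks the tubulin genes on chromosome 15. The part of the markers in the values of the tubulin genes was not tested. Of 17 genes of tubulin folding and modification, 0 passed and 0 had an unadjusted p under 0.05, with a median of 0.06.

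Markers of neighbouring tissues had medians away from 0 by the levels of the copies, although 0 of the 8 spinal cord and 0 of the 8 skeletal muscle markers passed by limma and 0 had an unadjusted p under 0.05 in any of the 3 comparisons. By Eno1b level the 8 spinal cord markers had a median log2 difference of -1.29 with 0 of 8 above 0, and their mean log2 level ran from 3.57 to 10.4 at the lower and from 3.37 to 8.15 at the upper level. By Tpm3-rs7 level the median was 0.84 for the spinal cord markers and 0.57 for the 8 skeletal muscle markers, with 8 of 8 above 0 in both. By Tuba1c level it was 0.32 with 8 of 8 above 0 and -0.58 with 0 of 8 above 0. With both marker levels added to the model, Tpm3 had a log2 difference of -0.91 (adjusted p = 5.96e-09, limma), Eno1 of -0.30 (adjusted p = 0.119), Tuba1a of 0.22 and Tuba1b of -0.10. The marker lists of sensory neurons, satellite glia, myelinating Schwann cells, fibroblasts, macrophages, erythroid cells and nerve injury held 0 genes that passed by limma in any of the 3 comparisons, and at most 2 a list with an unadjusted p under 0.05. By Tuba1c level, the comparison in which Tuba1a was at 0.22, the median log2 difference was -0.12 for the 6 myelinating Schwann cell markers and -0.21 for the 6 macrophage markers, with 0 of 6 above 0 in both. The part of these lists in the values of the tubulin genes was not tested.

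None of the 7 genes passed the limma test of TyJ against RwwJ strains. The upper level held 10 of 16 TyJ and 3 of 9 RwwJ strains for Eno1b, 6 and 5 for Tpm3-rs7, and 5 and 2 for Tuba1c. RwwJ minus TyJ, the log2 difference was 0.11 ± 0.089 (SE) for Eno1, -0.29 ± 0.18 (SE) for Tpm3, -0.07 ± 0.085 (SE) for Tuba1a and -0.08 ± 0.076 (SE) for Tuba1b, with adjusted p from 0.435 to 0.676. For the copies it was -2.47 ± 1.8 (SE) for Eno1b, 1.79 ± 1.5 (SE) for Tpm3-rs7 and -0.64 ± 0.80 (SE) for Tuba1c, with adjusted p from 0.489 to 0.700. Of all 16152 genes tested, 0% passed in limma and 15.1% had an unadjusted p under 0.05.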

How the data were processed

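RNA was extracted from dorsal root ganglia with Trizol and sequenced after library preparation with the TruSeq RNA v2 kit, per the labels' protocols. The submitters' processing notes name the tools HTSeq, TopHat2 2.0.9 and CASAVA 1.8.0, and mm9 and NCBIM37 as builds. The deposited table of 16220 genes held a normalized score that the authors made from read counts: whole numbers with an upper quartile of 1478 to 1478.25 in every library. Neither the scaling tool nor any filter is given in the sources used here. Because these were not raw counts, no count model was fitted. Scaled counts summed to between 24637919 and 26860283 a library.

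Symbols and chromosomes came from GENCODE M21 on GRCm38, matched by identifier for 15697 genes, with 523 unmatched. That is not the build of the table, so no coordinates are printed. Transcripts of that release were compared with Biopython 1.88.

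The 25 ordered log2 values of a copy were divided at the point where the variation between the sides was largest relative to that inside them (sums of squares), with at least 5 strains a side. All genes were then compared between the sides, and between TyJ and RwwJ strains, with limma 3.58.1 (R 4.3.3, trended prior, two-sided, Benjamini-Hochberg at 0.05) on log2(scaled count + 1). Genes entered with a mean of 10 or more, 16152 in all, less the copy that set the levels. Such log2 differences understate changes of low genes. Within a level, Pearson's r and Spearman's rho of log2 values had two-sided permutation p-values, exact below 10 strains and from 100000 permutations otherwise, adjusted over 8 relations. The method was tested on simulated data.

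Genes named are the 7 members, the 5 genes with a symbol of highest and of lowest moderated t for each copy, all measured genes of the 3 families, members of the 16 gene lists that passed, and the nearest tested genes beside the members. A gene that this rule names is not reported here. The members and lists were chosen with earlier results of these data known.

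Alternatives were the pseudocount, the scaling, the filter, strains left out, the ending of the strain name or marker levels as covariates, an untrended prior, other ways to set the level and a rank-sum test.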

Additional observations from a re-analysis of the deposited data

How the results depend on the processing

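Of the 4 related genes, Tpm3 passed and Tuba1b did not under all 14 alternatives run for each, with log2 differences of -0.92 to -0.84 and of -0.17 to -0.08. Among the 14, the split at the largest gap put the same strains on each side as the main split. Its result could not differ. Eno1 lay at the threshold in the main fit and did not pass under 9 of its 14 alternatives. Its log2 difference was -0.3062 with a pseudocount of 0.5 (limma adjusted p = 0.04999) and -0.3127 with median-ratio scaling (0.03414). It was -0.3216 without BXD48 (0.03852) and -0.3341 without BXD21, BXD36 and BXD40 (0.03434). It was -0.3001 with the ending of the strain name as covariate (0.1169) and -0.2742 with the continuous level of the copy (0.2471). In the TyJ strains alone it was -0.2221 (adjusted p = 0.9997). The adjusted p over the 13 alternatives that give one ran from 0.03414 to 0.9997. The exact rank-sum test of Eno1 alone gives no log2 difference. Its unadjusted p was 0.0004507, beside 6.824e-05 in the main limma fit. For Tuba1a, at 0.2235 in the main fit, the exact rank-sum test alone gave an unadjusted p of 0.007647. Its log2 difference ran from 0.1589, without BXD21, BXD36 and BXD40, to 0.249, in the TyJ strains alone. The limma adjusted p of Tuba1a stayed between 0.8665 and 0.9992. The count of genes that passed by Eno1b level was 13 with a mean of at least 50 and 10 in the TyJ strains alone, against 20, and by Tuba1c level 1 with a mean of at least 50, against 2. Fewer genes entered the fits with a mean of at least 50, and fewer strains the fit of the TyJ strains alone. Reversed were Tuba1a, RwwJ minus TyJ, at 0.01188 without BXD21, BXD36 and BXD40 (adjusted p = 0.9631), and r of Tpm3 with Tpm3-rs7 at the lower level, at -0.04182 without the 2 farthest strains. Neither had passed a test, and the cause was not tested.

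Leaving out each strain in turn, chosen after the values were seen, gave ranges of -0.3409 to -0.285 for Eno1, -0.9214 to -0.8701 for Tpm3, 0.171 to 0.2613 for Tuba1a and -0.1585 to -0.07735 for Tuba1b. The counts of genes ran from 19 to 28 by Eno1b level, from 8 to 11 by Tpm3-rs7 level and from 2 to 2 by Tuba1c level, and 0 to 0 of the 7 members differed between TyJ and RwwJ. At the upper level r ran from 0.8667 to 0.9148 for Eno1 with Eno1b and from 0.9546 to 0.9841 for Tuba1a with Tuba1c. No paired analysis was possible because the replicate numbers are only an order of accession and each strain is in 1 group. Low values limit the lower levels of Eno1b and Tpm3-rs7, where a few reads set the value.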
